A study of Sus scrofa with 12 samples.

Results

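The genes described here encode the proteins of the mitochondrial ribosome, and they were taken as every gene of the deposited expression table whose symbol begins with MRPL or MRPS followed by a digit. The rule found 66 genes among 18060, of which 41 carry a large-subunit name (MRPL) and 25 a small-subunit name (MRPS). They lie on 17 chromosomes of the pig genome. The label holds for the family as a whole, with exceptions in the naming: in mammalian mitochondria the products of MRPS18A and MRPS30 sit in the large subunit, and the product of MRPS36 belongs to the 2-oxoglutarate dehydrogenase complex and not to the ribosome. Counts below follow the names unless stated otherwise, and the count by place in the ribosome is given beside them.

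The mitochondrial ribosome translates the few mRNAs that the mitochondrial genome encodes, all of them for subunits of the respiratory chain and ATP synthase. Its rRNAs are made inside the organelle, but every one of its proteins is encoded in the nucleus, translated in the cytosol and imported. Some of these proteins have counterparts in the bacterial ribosome, and others are found only in mitochondria, where they form much of the outer shell, the central protuberance and the contact with the inner membrane. In the ovarian follicle, granulosa cells surround the oocyte, supply it with metabolites and make steroids, a synthesis that begins inside mitochondria.

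The cells were primary granulosa cells recovered from antral follicles of mature Duroc × Yorkshire × Landrace crossbred sows (Sus scrofa) and grown in serum-containing medium. The hypoxia group was held at 1% O2 for 12 h and the normoxia group at 21% O2 for 12 h, with no genetic change or other agent named for either. There were 3 biological replicates per condition, and from each came 2 libraries, 1 of poly(A) RNA as fragmented (input) and 1 after pull-down with an antibody to N6-methyladenosine (m6A), a methyl mark on mRNA adenosines, which makes 12 libraries. The sources used here do not say whether the replicates were different sows, so p-values measure the spread between these cultures. The cells were in culture outside the follicle, with 1 duration of hypoxia.

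Expression was measured in the 6 input libraries as FPKM, a fragment number per length of transcript and size of library. FPKM hold no fragment counts, and library depth is unknown, so no counting interval is given. Summed FPKM ran from 294930 to 326800 over the libraries. Of the 8 genes taken as a check of the hypoxic response, 8 were higher in hypoxia, with log2 differences between 1.20 for CA9 and 4.61 for BNIP3. The granulosa markers FSHR, FOXL2, NR5A1, WT1, INHA, INHBA, INHBB and GJA1 were expressed, while CYP19A1 had 0.119 FPKM in hypoxia and 0.233 in normoxia, and AMH 0.0542 in hypoxia and 0.118 in normoxia. NR5A2 had 0.878 FPKM in hypoxia and 1.90 in normoxia. The 11 granulosa markers summed to 239–392 FPKM in hypoxia and 321–384 in normoxia, most of it GJA1 with means of 208 in hypoxia and 243 in normoxia. The 8 fibroblast and smooth-muscle markers summed to 3852–4874 FPKM in hypoxia and 7551–9337 in normoxia, most of it ACTA2, and all 8 were above 0. Of these, COL1A1, COL3A1 and DCN had means of 286, 325 and 198 FPKM in hypoxia, against 184, 308 and 231 in normoxia. The 5 endothelial markers in the table summed to 2.90–3.16 FPKM in hypoxia and 6.31–6.93 in normoxia, almost all of it PECAM1, with VWF, TEK, KDR and CLDN5 at or near 0. The 5 leukocyte markers summed to 2.79–7.60 FPKM in hypoxia and 3.70–4.67 in normoxia, with PTPRC, the defining marker, at 0.0767 or less in any library. The 4 theca markers in the table, mainly PDGFRB, summed to 12.0–27.8 FPKM in hypoxia and 9.10–14.5 in normoxia, and the 1 oocyte marker, GDF9, had 0.560–1.33 in hypoxia and 1.12–1.38 in normoxia. The part of these other cell types in the results below was not tested, and in bulk samples fewer cells of a type and less RNA per cell cannot be told apart.

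Of the 65 members that could be tested, 60 had a lower fitted level in hypoxic than in normoxic granulosa cells, and 29 of these passed the test. Among all 10196 genes tested, 7362 had a lower fitted level in hypoxia and 2148 of them passed. Together the 66 genes took 0.270% ± 0.00732 of the summed FPKM in hypoxia (SD, n = 3) and 0.415% ± 0.0117 in normoxia, and the ranges over libraries, 0.263–0.278% in hypoxia and 0.403–0.426% in normoxia, did not overlap. The large-subunit genes took 0.176% ± 0.00438 in hypoxia and 0.275% ± 0.00672 in normoxia. The small-subunit genes took 0.0942% ± 0.00295 in hypoxia and 0.140% ± 0.00542 in normoxia. The median large-subunit gene stood at 9.53 ± 1.28 FPKM in hypoxia and 16.7 ± 0.780 in normoxia, and the median small-subunit gene at 5.45 ± 0.554 in hypoxia and 10.4 ± 1.97 in normoxia. Over all genes tested, the median level was 5.29 ± 0.755 FPKM in hypoxia and 6.62 ± 0.238 in normoxia.

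Of the 66 genes, 65 had at least 1 FPKM in at least 3 libraries and were tested. The test was limma on log2(FPKM + 1) across 10196 genes with Benjamini-Hochberg adjustment, and a gene counted as changed at an adjusted p under 0.05. In hypoxia 29 members were lower, 1 was higher and 35 were neither, where 21.1% of all genes tested were lower and 5.4% were higher. At an unadjusted p under 0.05, 36 were lower and 2 higher, beside 3109 lower and 788 higher of all 10196 genes tested. Of the 41 large-subunit genes, 19 were lower and 1, MRPL45, was higher. Of the 24 small-subunit genes tested, 10 were lower and none was higher, and 0 reached an unadjusted p under 0.05 in that direction with limma. Among the 10, MRPS18C entered the test through the normoxia libraries alone. The median log2 difference was −0.56 for the large subunit and −0.48 for the small subunit, against −0.27 for all genes tested, so relative to all genes the medians were −0.29 and −0.22. Below the all-gene median lay 34 of 41 large-subunit genes and 18 of 24 small-subunit genes. The 3 libraries of each condition did not overlap for 39 members that were lower in hypoxia and for 2 that were higher, where 34.9% and 9.25% of all genes tested did the same. By place in the ribosome, the large subunit had 19 lower and 1 higher of 43, and the small subunit 10 lower and 0 higher of 21.

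Because the median of all genes was itself lower in hypoxia, the count depended on the scaling. After median-ratio scaling per library, which moved the all-gene median by 0.278 on the log2 scale to 0.01, 9 large-subunit genes were lower and 1 was higher, and 3 small-subunit genes were lower and 0 higher. At this scaling 7.51% of all genes were lower and 7.36% higher. A negative difference remained in 51 of the 65 tested members, against 60 before scaling; the 9 that turned positive, MRPL9, MRPL10, MRPL13, MRPL17, MRPL18, MRPL37, MRPL49, MRPS9 and MRPS18A, passed the test under neither scaling. The 12 members still lower were all among the 29 above, and the medians relative to all genes, −0.29 and −0.21, were nearly the same as before. The 12 were MRPL15, MRPL20, MRPL34, MRPL40, MRPL43, MRPL51, MRPL55, MRPL57, MRPL58, MRPS12, MRPS23 and MRPS27. Without normoxia library 2 the counts on FPKM as deposited were 12 large-subunit and 5 small-subunit genes lower, beside 7.83% of all genes tested. Leaving out a single library ended the call of 12 of the 29. MRPL33, MRPS7 and MRPS25 lost it without normoxia library 2 (adjusted p = 0.0614, 0.0526 and 0.0628), and MRPL51 without normoxia library 1 or 2 (0.0563 and 0.0628). MRPL22, MRPL48, MRPS5 and MRPS18C lost it without hypoxia library 1 or any 1 normoxia library (adjusted p from 0.0551 to 0.14), and MRPL4, MRPL11, MRPL46 and MRPS15 without any library except hypoxia library 3 (adjusted p from 0.0538 to 0.155).

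**Figure D1:**
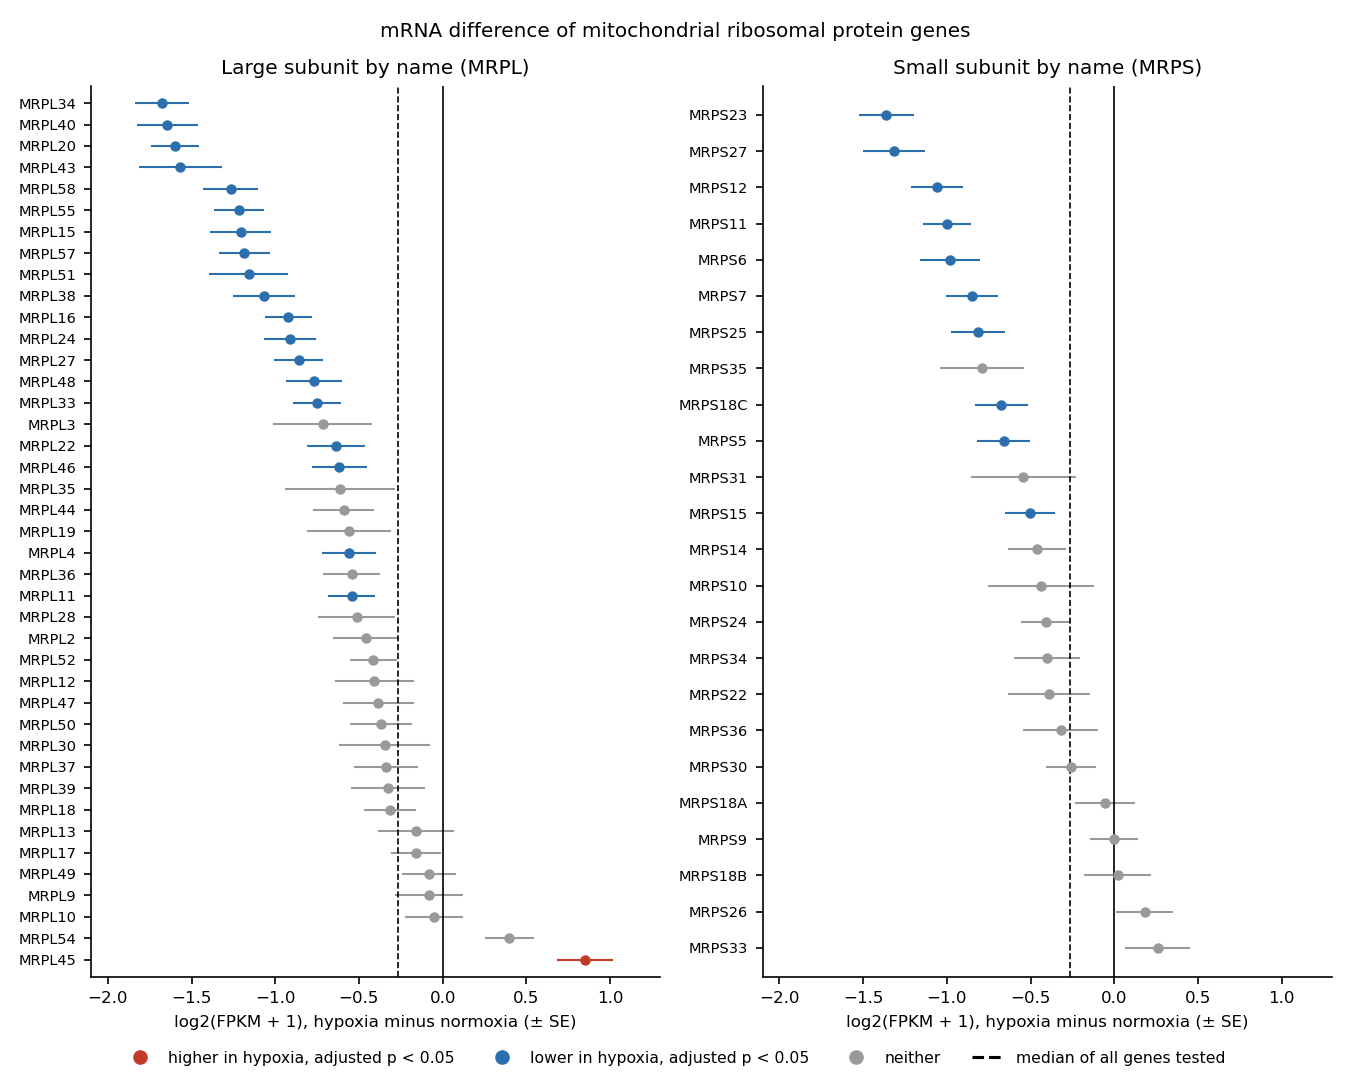
Difference between hypoxia and normoxia in log2(FPKM + 1) for each tested member (point) with the SE of the limma fit (line), large subunit left and small subunit right, sorted by size. The solid line marks no difference and the dashed line the median of all genes tested, −0.27; most members lie left of it, MRPL34 at −1.68 lies lowest and MRPL45 at 0.85 highest.

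The largest falls among proteins with a bacterial counterpart were in MRPL34, MRPL20 and MRPL55, whose products match the bacterial proteins L34, L20 and L31. MRPL34 (ENSSSCG00000039295, chr2:60377906-60378874, minus strand, Sscrofa11.1) had 6.59, 5.31 and 5.08 FPKM in hypoxia, against 20.9, 21.9 and 18.0 in normoxia. All hypoxia libraries lay far below the lowest normoxia library. The ratio of mean FPKM was 0.279, and the log2 difference was −1.68 (SE 0.16, adjusted p = 0.000792). MRPL20 (ENSSSCG00000033374, chr6:63670755-63675839, minus strand), whose bacterial relative binds the large-subunit rRNA early in assembly, had 18.4, 17.4 and 14.8 FPKM in hypoxia, against 54.1, 54.6 and 50.2 in normoxia. Both groups were tight and widely separated (log2 difference −1.60, SE 0.14, adjusted p = 0.00067). MRPL55 (ENSSSCG00000029050, chr2:51243294-51247594, minus strand) had 20.6, 19.5 and 15.9 FPKM in hypoxia, against 45.0, 43.4 and 44.9 in normoxia. Its normoxia libraries were almost equal and all above the hypoxia libraries (log2 difference −1.22, SE 0.15, adjusted p = 0.00176).

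Among the proteins found only in mitochondrial ribosomes, MRPL40, MRPL43 and MRPL58 fell most in the large subunit. MRPL40 (ENSSSCG00000034014, chr14:51102613-51105767, plus strand), a protein of the central protuberance, had 14.7, 13.0 and 9.89 FPKM in hypoxia, against 37.5, 45.9 and 39.4 in normoxia. No hypoxia library reached a normoxia library, and hypoxia library 3 was lowest (log2 difference −1.65, SE 0.18, adjusted p = 0.00136). MRPL43 (ENSSSCG00000010560, chr14:112066338-112070232, minus strand) had 3.59, 4.46 and 1.95 FPKM in hypoxia, against 12.5, 12.0 and 9.94 in normoxia. The groups did not overlap, although hypoxia library 3 stood apart from the other two at the low end (log2 difference −1.57, SE 0.25, adjusted p = 0.00524). MRPL43 overlaps SEMA4G on the other strand by 1914 bases, and SEMA4G was higher in hypoxia, at 11.7 ± 5.33 FPKM against 3.99 ± 0.253 in normoxia (log2 difference 1.27, adjusted p = 0.0159). MRPL58 (ENSSSCG00000034406, chr12:6255342-6266163, minus strand), also called ICT1, is a peptidyl-tRNA hydrolase that frees stalled ribosomes and is built into the large subunit. Its values were 2.36, 2.57 and 1.87 FPKM in hypoxia, against 6.92, 7.18 and 6.36 in normoxia, 2 tight groups without overlap (log2 difference −1.27, SE 0.16, adjusted p = 0.00226).

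In the small subunit the mitochondria-specific proteins MRPS23 and MRPS27 fell most. MRPS23 (ENSSSCG00000035193, chr12:34122020-34129548, minus strand) had 4.18, 4.50 and 3.19 FPKM in hypoxia, against 12.4, 11.5 and 11.0 in normoxia. The hypoxia libraries all lay far under the normoxia libraries (log2 difference −1.36, SE 0.16, adjusted p = 0.00173). MRPS27 (ENSSSCG00000023818, chr16:48506795-48616869, minus strand), a pentatricopeptide-repeat protein, had 1.69, 2.03 and 1.12 FPKM in hypoxia, against 5.67, 5.61 and 5.08 in normoxia. The groups were again apart, with hypoxia library 3 lowest (log2 difference −1.32, SE 0.19, adjusted p = 0.00316). Its first 11858 bases overlap PTCD2 on the other strand, a gene at 6.06 ± 0.485 FPKM in hypoxia and 6.19 ± 0.956 in normoxia. MRPS12, whose bacterial counterpart lines the decoding centre, had 6.04, 6.68 and 5.89 FPKM in hypoxia, against 12.1, 15.7 and 14.4 in normoxia. The lowest normoxia library lay well above all hypoxia libraries (log2 difference −1.06, SE 0.16, adjusted p = 0.00361).

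**Figure D2:**
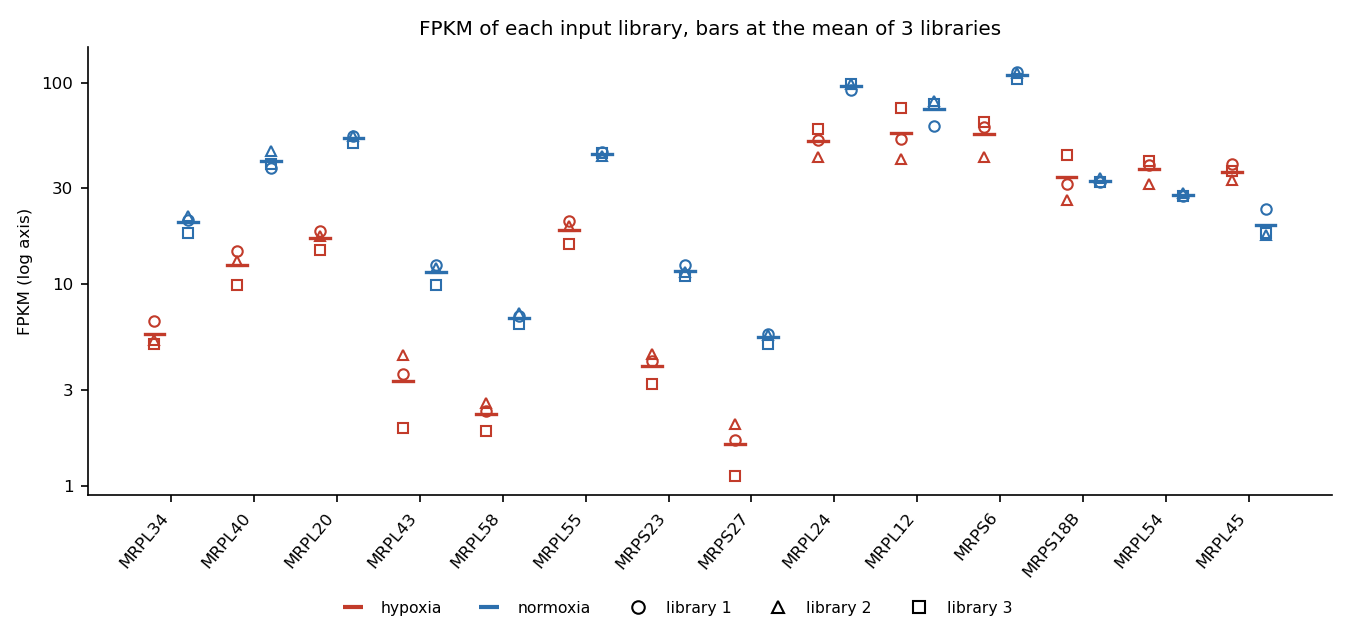
FPKM on a log axis in each of the 6 input libraries for 14 members, hypoxia left of normoxia, with a symbol per library number and a bar at the mean of 3 libraries. The 8 members on the left, from MRPL34 to MRPS27, show hypoxia libraries below all normoxia libraries, while MRPL54 and MRPL45 on the right show hypoxia libraries above all normoxia libraries.

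The only member that was higher in hypoxia by the limma test was MRPL45 (ENSSSCG00000023263, chr12:23751926-23766459, minus strand). Its product lies at the end of the polypeptide exit tunnel and holds the ribosome to the inner mitochondrial membrane. MRPL45 had 39.3, 32.8 and 36.3 FPKM in hypoxia, against 23.6, 17.6 and 18.0 in normoxia. All hypoxia libraries were above all normoxia libraries, and the ratio of mean FPKM was 1.83 (log2 difference 0.85, SE 0.17, adjusted p = 0.0101). The direction held after median-ratio scaling, with a log2 difference of 1.19 (adjusted p = 0.00862). The call ended when hypoxia library 1, normoxia library 2 or normoxia library 3 was left out, with adjusted p = 0.0528, 0.0611 and 0.0536. In the authors' deposited table MRPL45 had a log2 fold change of 0.87 and a q-value of 0.000427, and it was not marked as up.

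MRPL54 (ENSSSCG00000024242, chr2:74925070-74928167, minus strand), a further mitochondria-specific protein of the large subunit, did not pass the test but went against most of its subunit. It had 39.1, 31.6 and 40.6 FPKM in hypoxia, against 27.5, 28.3 and 27.4 in normoxia. The groups did not overlap, with the normoxia libraries almost equal and hypoxia library 2 nearest to them (log2 difference 0.40, SE 0.15, adjusted p = 0.0888). The adjusted p was 0.0491 when the values of each library were rescaled to 1 common sum and 0.0422 without hypoxia library 2. MRPS33, MRPS26 and MRPS18B, 3 mitochondria-specific proteins of the small subunit, had log2 differences of 0.26, 0.18 and 0.02 with overlapping libraries.

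The highest levels within the family belonged to a few genes. In the small subunit MRPS6, the counterpart of bacterial S6, was highest, with 60.2, 42.9 and 63.6 FPKM in hypoxia, against 113, 111 and 104 in normoxia. It was the most expressed of all members in normoxia and was lower in each hypoxia library (log2 difference −0.98, SE 0.18, adjusted p = 0.00779). MRPL24, the counterpart of an early-binding bacterial assembly protein, had 51.7, 42.7 and 58.9 FPKM in hypoxia, against 92.2, 98.2 and 98.9 in normoxia, groups without overlap (log2 difference −0.91, SE 0.16, adjusted p = 0.00612). MRPL12, which forms the stalk that recruits translation factors, had 52.6, 41.7 and 74.4 FPKM in hypoxia, against 60.7, 81.2 and 78.6 in normoxia. Its groups overlapped, since hypoxia library 3 lay among the normoxia libraries (log2 difference −0.41, SE 0.24, adjusted p = 0.252), and without hypoxia library 3 the adjusted p was 0.0118. MRPL37, a mitochondria-specific protein, had 30.5, 23.8 and 38.5 FPKM in hypoxia, against 38.1, 39.2 and 38.6 in normoxia. Here too library 3 was the hypoxia library that reached the normoxia level (log2 difference −0.34, adjusted p = 0.238, and 0.017 without it).

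MRPS7, MRPS15 and MRPS18B also stood among the most expressed small-subunit genes. MRPS7, the counterpart of a protein in the head of the bacterial small subunit, had 28.2, 21.9 and 27.5 FPKM in hypoxia, against 44.6, 52.2 and 45.1 in normoxia. MRPS15 had 34.1, 31.7 and 25.9 FPKM in hypoxia, against 44.8, 43.4 and 42.2 in normoxia. Neither gene's groups overlapped, with log2 differences of −0.85 (SE 0.16, adjusted p = 0.00793) and −0.50 (SE 0.15, adjusted p = 0.0445). MRPS18B, a mitochondria-specific relative of bacterial S18, had 31.4, 26.2 and 43.9 FPKM in hypoxia, against 32.0, 33.7 and 32.2 in normoxia. Its normoxia values lay inside the hypoxia range (log2 difference 0.02, SE 0.20, adjusted p = 0.96). The paralogue MRPS18C, the direct counterpart of bacterial S18, was expressed at a far lower level, with 0.664, 0.874 and 0.451 FPKM in hypoxia, against 1.93, 1.56 and 1.45 in normoxia. MRPS18C reached 1 FPKM in the normoxia libraries alone, so it entered the test only through the group in which it was higher. Its groups did not overlap (log2 difference −0.67, SE 0.16, adjusted p = 0.0204), and a further paralogue, MRPS18A, had 6.84 ± 1.44 FPKM in hypoxia and 7.06 ± 0.104 in normoxia. MRPS28, the counterpart of bacterial S1, was the 1 member below the filter, with 0.470, 0.509 and 0.232 FPKM in hypoxia, against 0.896, 0.913 and 0.740 in normoxia, lower in each hypoxia library but not tested.

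Sorted by descent, the members with a bacterial counterpart and those found only in mitochondria are given apart; this division was made after the values were seen and carries no test. Of 36 tested members with a bacterial counterpart, 18 were lower and none higher in hypoxia, with a median log2 difference of −0.56. Of 28 mitochondria-specific members, 11 were lower and 1 was higher, with a median of −0.48. On FPKM as deposited the bacterial type held no member with a positive difference. Its values ran from −1.68 to −0.00, while the mitochondria-specific type ran from −1.65 to 0.85. The subunit counts of this paragraph go by place in the ribosome, and MRPS36 is in neither type. Within the small subunit 7 of 11 members of bacterial type, MRPS18C among the 7, and 3 of 10 mitochondria-specific members were lower. In the large subunit the corresponding counts were 11 of 25 and 8 of 18, where 21.1% of all genes tested were lower. The order did not hold after median-ratio scaling, where 5 of 36 members of bacterial type and 7 of 28 mitochondria-specific members were lower. At this scaling 7.51% of all genes tested were lower, and the small-subunit counts were 1 of 11 and 2 of 10. MRPL9, MRPL10, MRPL13, MRPL17, MRPL18 and MRPS9, all of bacterial type, then had positive differences, the highest 0.32 for MRPS9. MRPL37, MRPL49 and MRPS18A of the mitochondria-specific type also turned positive.

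The authors' deposited table gave the same direction for the strongest members. It marked 18 of the 66 as down, 11 in the large and 7 in the small subunit, and none as up, where 8.72% of all its genes were marked down and 4.75% up. MRPL34 had a log2 fold change of −1.84 and MRPL43 of −1.78 in the authors' deposited table. A mark there did not follow the threshold used here. MRPL48, MRPS35 and MRPS28 were marked down at q-values of 0.0699, 0.083 and 0.127 in the authors' deposited table. MRPS35 did not pass the limma test, and MRPS28 was not tested.

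Hypoxia library 3 stood apart from hypoxia libraries 1 and 2. It was the lowest of the 3 hypoxia libraries for 41 of the 65 tested members and the highest for 18, and over all genes tested it was lowest for 5661 and highest for 3685. Its difference from the mean of libraries 1 and 2 in log2(FPKM + 1) ran from −1.12 for MRPL35 to 0.66 for MRPL12, with a median of −0.24. Normoxia library 3 deviated in the same order of genes, with a Spearman correlation of 0.76 over the 65 members and 0.74 over all genes tested, given as a description because the genes share their libraries. Longer genes were lower in both, with a correlation to the annotated span of −0.39 in hypoxia library 3 and −0.44 in normoxia library 3 over the members, and of −0.33 and −0.19 over all genes tested. Without hypoxia library 3, 26 large-subunit and 12 small-subunit genes were lower, and so were 31.2% of all genes tested. Without both libraries 3 the counts were 27 and 13, beside 31.3% of all genes tested, and MRPL45 stayed the 1 member that was higher. The part of gene length in these deviations was not tested.

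**Figure D3:**
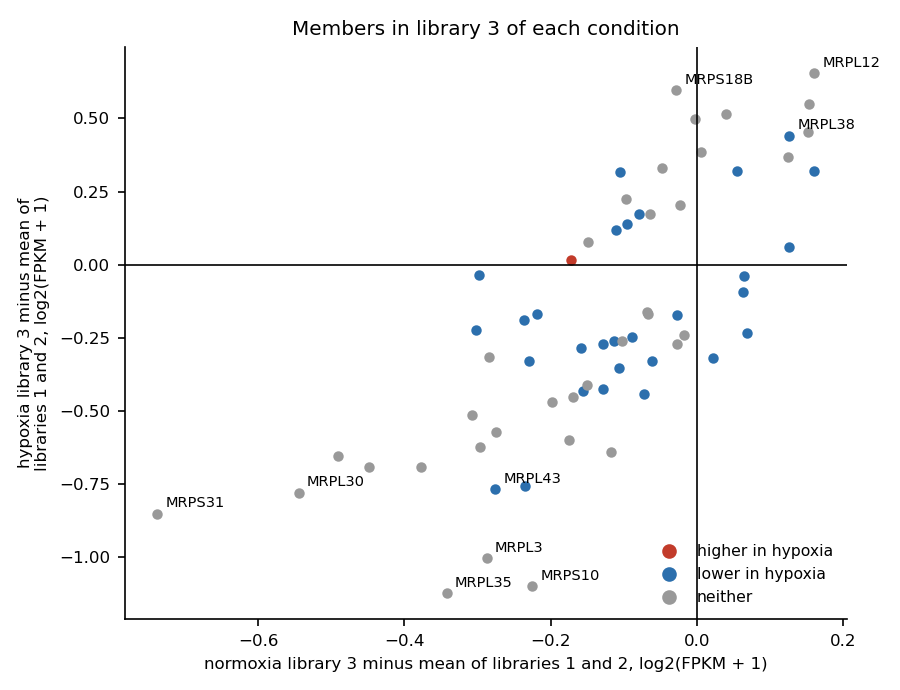
Deviation of library 3 from the mean of libraries 1 and 2 in log2(FPKM + 1), hypoxia on the vertical axis and normoxia on the horizontal axis, 1 point per tested member and colours by the test. MRPL35, MRPS10 and MRPL3 lie at the bottom, with hypoxia deviations of −1.12, −1.10 and −1.001, and MRPL12 at the top with 0.66.

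Several members share a start region with another gene or overlap one. A gene on the other strand begins within 1000 bases of the start of 25 members, and 22 members are overlapped by another gene, 20 of them by one on the other strand. Library preparation marked strand, and whether counting used it was not stated. MRPL46 and MRPS11, 1 from each subunit, start 351 bases apart on opposite strands of chromosome 1, and both fell. MRPS11 had 14.5, 12.7 and 14.2 FPKM in hypoxia, against 25.4, 30.3 and 30.4 in normoxia, without overlap (log2 difference −0.999, SE 0.15, adjusted p = 0.00349). MRPL46, a protein of the central protuberance, had 10.1, 9.08 and 8.05 FPKM in hypoxia, against 16.5, 14.6 and 12.4 in normoxia, also without overlap (log2 difference −0.62, SE 0.17, adjusted p = 0.0319). MRPL15 and LYPLA1, MRPL22 and GEMIN5, and MRPL40 and HIRA were further pairs of opposite genes in which both were lower. In 6 pairs of this kind the member was lower and its tested partner was not, among them MRPL43 and the mitochondrial helicase gene TWNK, whose log2 difference was 0.01. The reverse held for MRPL18 and MRPS18B, which did not pass. Their partners TCP1 and PPP1R10 were lower, with log2 differences of −1.48 (adjusted p = 0.0101) and −0.88 (adjusted p = 0.00709). No such counts over all genes are given beside these.

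Of 5 genes for ribosomal proteins that carry other symbols, 3 were lower and 0 higher, where 21.1% of all genes tested were lower; these were AURKAIP1, PTCD3 and CHCHD1, all of the small subunit. AURKAIP1 had 19.8, 18.1 and 25.9 FPKM in hypoxia, against 40.7, 46.0 and 46.3 in normoxia, and PTCD3 had 3.79, 4.91 and 2.39 FPKM in hypoxia, against 8.96, 8.51 and 7.23 in normoxia. The groups of both genes were apart, with log2 differences of −1.04 (SE 0.17, adjusted p = 0.00538) and −1.01 (SE 0.23, adjusted p = 0.0187), and CHCHD1 had −0.78 (adjusted p = 0.0466). After median-ratio scaling AURKAIP1 and CHCHD1 did not pass (adjusted p = 0.101 and 0.127). Without hypoxia library 1 or any 1 normoxia library PTCD3 had an adjusted p from 0.053 to 0.087, and without any library except hypoxia library 3 CHCHD1 had one from 0.0501 to 0.157. GADD45GIP1 and DAP3, a GTP-binding protein of the small subunit, did not pass, with log2 differences of −0.50 and −0.16. The 5 genes had a median of −0.51 relative to all genes.

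Factors that build the mitochondrial ribosome gave 10 lower and 1 higher of 23 tested, or 43.5% and 4.35%, where 21.1% and 5.4% of all genes tested were lower and higher, with a relative median of −0.18. METTL17, a methyltransferase-like factor needed for the small subunit, had 2.44 ± 0.170 FPKM in hypoxia and 11.2 ± 0.760 in normoxia (SD, n = 3 each). This was a larger fall than that of any MRPL or MRPS gene, with no overlap (log2 difference −1.82, SE 0.15, adjusted p = 0.000461). MPV17L2, an inner-membrane protein, and DHX30, an RNA helicase, had log2 differences of −1.43 (adjusted p = 0.00424) and −1.13 (adjusted p = 0.00244). TFB1M, which methylates 2 adjacent adenosines of the small-subunit rRNA, was higher, with 13.5, 10.2 and 11.0 FPKM in hypoxia, against 8.21, 7.17 and 7.47 in normoxia. Its groups did not overlap (log2 difference 0.53, SE 0.16, adjusted p = 0.0457), and the call ended without hypoxia library 1 (adjusted p = 0.176) or any 1 normoxia library (adjusted p = 0.101, 0.176 and 0.146 without libraries 1, 2 and 3).

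Translation factors of mitochondria gave 2 lower and 0 higher of 11 tested, a share of 18.2% that is close to that of all genes, with a relative median of −0.14. TUFM, the elongation factor that brings aminoacyl-tRNA to the ribosome, had 33.2, 31.8 and 43.4 FPKM in hypoxia, against 59.2, 69.8 and 63.9 in normoxia. Its groups were apart (log2 difference −0.83, SE 0.16, adjusted p = 0.0108), and the adjusted p was 0.229 after median-ratio scaling and 0.0545, 0.0644 and 0.0509 without hypoxia library 1, normoxia library 2 and normoxia library 3. MTRFR, a rescue factor related to MRPL58, had a log2 difference of −0.71 (adjusted p = 0.034, and from 0.0688 to 0.137 without hypoxia library 1 or any 1 normoxia library).

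Genes for transcription and processing of mitochondrial RNA gave 4 lower and 0 higher of 18, with a relative median of −0.09; the 22.2% lower is close to the 21.1% of all genes tested. They were ELAC2, which cuts the 3′ ends of tRNAs (log2 difference −1.74, adjusted p = 0.000867), the RNA polymerase POLRMT (−1.04, adjusted p = 0.00403), its partner TFB2M (−0.94, adjusted p = 0.00335) and HSD17B10, a subunit of mitochondrial RNase P that was named after its values were seen (−0.64, adjusted p = 0.0394, and from 0.0674 to 0.145 without any library except hypoxia library 3). TFB2M had 0.246, 0.275 and 0.0587 FPKM in hypoxia, against 1.26, 1.37 and 1.19 in normoxia. It entered the test through the normoxia libraries alone. TFAM, which packs and starts transcription of mitochondrial DNA, had 1.97, 3.99 and 0.858 FPKM in hypoxia, against 3.07, 2.47 and 1.76 in normoxia. Its groups overlapped, as did those of the mRNA-binding protein LRPPRC, and the log2 differences were −0.17 (adjusted p = 0.78) and −0.69 (adjusted p = 0.209).

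Genes for insertion and quality control of mitochondrial proteins gave 4 lower and 1 higher of 12, or 33.3% and 8.33%, where 21.1% and 5.4% of all genes tested were lower and higher, with a relative median of −0.36. HSPA9, the matrix Hsp70, had 26.1, 29.6 and 14.8 FPKM in hypoxia, against 69.7, 61.7 and 53.7 in normoxia, and its log2 difference was −1.40 (SE 0.26, adjusted p = 0.00917). The subunit CLPP of the matrix protease ClpXP and the prohibitin PHB1 were lower too, with log2 differences of −0.92 (adjusted p = 0.0103, and 0.0626 without normoxia library 2) and −0.85 (adjusted p = 0.00614). After median-ratio scaling neither passed, with adjusted p = 0.139 for CLPP and 0.156 for PHB1. So was the protease subunit AFG3L2, named after its values were seen (log2 difference −0.62, adjusted p = 0.0171, and from 0.068 to 0.0883 without hypoxia library 1 or any 1 normoxia library). LONP1, the other soluble matrix protease, was higher, with 56.0, 52.1 and 57.0 FPKM in hypoxia, against 32.9, 35.4 and 31.6 in normoxia, groups far apart (log2 difference 0.71, SE 0.13, adjusted p = 0.0077). OXA1L, the insertase that docks at the same tunnel exit as MRPL45, had 16.5 ± 2.76 FPKM in hypoxia and 19.0 ± 0.862 in normoxia, with overlapping libraries (log2 difference −0.20, adjusted p = 0.412).

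Nuclear regulators of mitochondrial genes gave 2 lower and 0 higher of 5 tested, where 21.1% of all genes tested were lower. The relative median of these 5, out of 10 listed, was 0.025, so it did not lie below that of all genes. PPRC1, a coactivator related to PGC-1α, had 2.13, 3.59 and 1.86 FPKM in hypoxia, against 9.25, 10.6 and 12.2 in normoxia, without overlap (log2 difference −1.75, SE 0.22, adjusted p = 0.00239). HIF1A, the oxygen-sensitive subunit of the hypoxia-inducible factor, had a log2 difference of −1.37 (adjusted p = 0.0476, and from 0.104 to 0.144 without hypoxia library 1 or any 1 normoxia library). MYC did not differ beyond its spread, with 16.0 ± 1.34 FPKM in hypoxia and 15.0 ± 2.81 in normoxia (log2 difference 0.09, adjusted p = 0.734). After median-ratio scaling 1 of the ribosomal genes with other symbols, 5 assembly, 3 RNA, 1 quality-control and 1 regulator gene were lower, and TFB1M, LONP1 and the initiation factor gene MTIF3 were higher, where 7.51% of all genes tested were lower and 7.36% higher. The other listed regulators were below the filter and not tested. Of these, the respiratory-gene factor NRF1 had 0.618 ± 0.179 FPKM in hypoxia and 0.961 ± 0.0423 in normoxia. PPARGC1A had 0.259 ± 0.0761 in hypoxia and 0.444 ± 0.0515 in normoxia, and PPARGC1B 0.183 ± 0.0504 and 1.13 ± 0.256. For NRF1, PPARGC1A and PPARGC1B all hypoxia libraries lay below all normoxia libraries. GABPA had 0.997 ± 0.853 in hypoxia and 0.954 ± 0.235 in normoxia, and its libraries overlapped, as did those of GABPB1. PPARGC1A, PPARGC1B and GABPB1 were named after their values were seen.

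**Figure D4:**
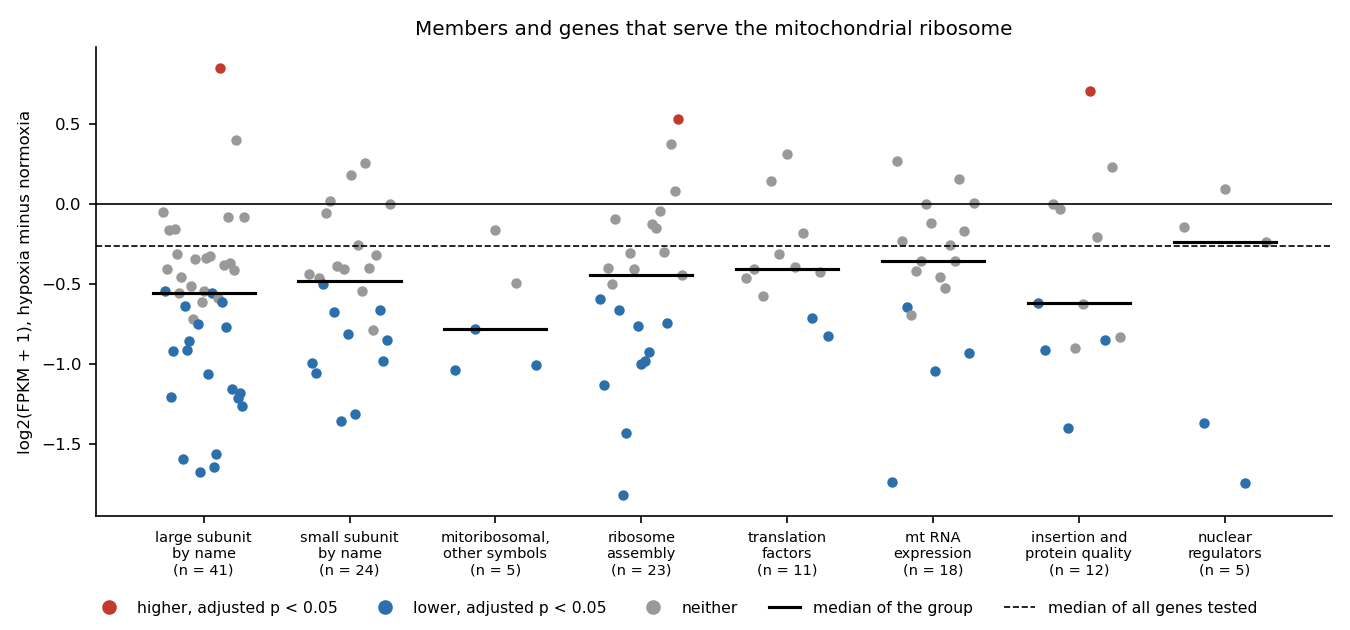
Difference between hypoxia and normoxia in log2(FPKM + 1) for each tested gene (point) of both subunits and of 6 lists of related genes, with the median of each group as a bar and the median of all genes tested, −0.27, as a dashed line. Points above 0 that passed the test are MRPL45, TFB1M and LONP1.

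The m6A peaks of the members were taken from the authors' deposited peak lists, 1 per condition, whose enrichments of immunoprecipitated over input RNA are the authors' values. The hypoxia list held 80 peaks in 53 members and the normoxia list 101 peaks in 62. Of the 65 tested members, 52 had a peak listed in hypoxia and 61 in normoxia, which is 80.0% in hypoxia and 93.8% in normoxia, where 79.8% and 85.8% of all genes tested had one in hypoxia and in normoxia. In the small subunit 24 genes had a peak in each list, and in the large subunit 29 had one in the hypoxia list and 38 in the normoxia list. The 9 members with a peak in the normoxia list alone were all of the large subunit, namely MRPL3, MRPL4, MRPL10, MRPL18, MRPL20, MRPL24, MRPL35, MRPL47 and MRPL48. Of these 9, 4 had lower mRNA in hypoxia, a share near that of members with a peak in both lists, 25 of 53. No member had a peak in the hypoxia list alone, and MRPL13, MRPL28, MRPL39 and MRPS18B had none in either list. The mRNA level of most members was also lower in hypoxia, and its part in these counts was not tested.

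Peaks of the members lay mostly in the 3′ untranslated region, as annotated by the authors. This region held 56 of 80 hypoxia peaks, or 70.0%, and 68 of 101 normoxia peaks, or 67.3%, where it held 43.7% of all listed hypoxia peaks and 45.8% of all normoxia peaks. Exons held 17.5% of the members' hypoxia peaks and 17.8% of their normoxia peaks, where they held 35.8% of all hypoxia and 32.8% of all normoxia peaks. The 5′ untranslated region held 12.5% of the members' hypoxia and 14.9% of their normoxia peaks, where it held 15.9% and 17.1% of all peaks. Of the hypoxia peaks 74 overlapped a normoxia peak of the same gene by at least 1 base, which is 92.5% of the hypoxia peaks, and 73 normoxia peaks, or 72.3%, overlapped a hypoxia peak. The median log2 enrichment of the members' peaks was 2.04 in the hypoxia list and 1.89 in the normoxia list, beside medians of 2.27 over all hypoxia peaks and 2.08 over all normoxia peaks.

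The most enriched peaks among those with an adjusted p under 0.05 belonged to a few members. In the authors' deposited lists MRPL2, whose bacterial counterpart lies beside the peptidyl-transferase centre, had a 5′ untranslated peak at chr7:38121461-38121756 on the minus strand, with a log2 enrichment of 4.57 in hypoxia and 4.45 in normoxia. The list borders of this peak were identical in both conditions. MRPL2 itself had 22.9, 17.3 and 27.6 FPKM in hypoxia, against 27.1, 32.7 and 33.2 in normoxia, with overlap (log2 difference −0.46, adjusted p = 0.137). MRPS18C had its highest 3′ untranslated peak at 3.74 in hypoxia and 4.47 in normoxia, on a gene of low expression. An exonic peak of MRPS12 reached 3.46 in hypoxia, where its normoxia counterpart was listed at 3.32, and the 3′ peak of MRPL34 stood at 3.43 in hypoxia and 2.76 in normoxia. In the normoxia list a 3′ untranslated peak of MRPL58 reached 4.54, and one of MRPL17, the counterpart of a tunnel-exit protein, reached 3.45. MRPL17 had 17.0, 13.3 and 15.9 FPKM in hypoxia, against 18.1, 17.6 and 16.0 in normoxia, overlapping levels (log2 difference −0.16, adjusted p = 0.495). Enrichments of different lists are given side by side and were not compared.

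The authors' deposited table of differential peaks held 8 peaks of members, 1 each in 8 genes, or 12.3% of the tested members, where 9.62% of all genes tested had one. Its values are log2 differences in m6A, positive where m6A was higher in hypoxia, and every listed peak had an unadjusted p under 0.05. In it 2 members had more m6A in hypoxia and 6 had less, and over all genes 519 peaks had more and 687 less. Past an adjusted p of 0.05 in the authors' deposited table were 2 of the 8, MRPS5 and MRPL46. Over all genes, 426 of the 1206 differential peaks passed it.

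MRPS5, whose bacterial counterpart lies at the mRNA entry of the small subunit, had more m6A in hypoxia in the authors' deposited table, with a log2 difference of 0.465 (adjusted p = 0.00912) over a span at chr3:46144896-46158889 on the plus strand that runs across introns. Its mRNA went the other way, with 3.41, 3.50 and 2.75 FPKM in hypoxia, against 6.01, 5.58 and 5.38 in normoxia. The mRNA levels did not overlap (log2 difference −0.66, SE 0.16, adjusted p = 0.0208). MRPL46 had less m6A in hypoxia in the authors' deposited table, with −0.523 (adjusted p = 0.049) over chr1:191324839-191331319 on the plus strand. In the normoxia list 1 peak covers most of this span, and the hypoxia list holds only its 3′ end.

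The other 6 had an adjusted p between 0.0891 and 0.277 in the authors' deposited table. MRPL11, a protein at the base of the stalk, had a log2 difference in m6A of 0.277 there, and its mRNA had 20.2, 18.1 and 18.6 FPKM in hypoxia, against 25.2, 30.3 and 28.9 in normoxia. MRPL4 and MRPL3, whose bacterial counterparts line the exit tunnel and the peptidyl-transferase centre, had m6A differences of −0.946 and −0.707 in the authors' deposited table. MRPL4 mRNA had 6.09, 6.16 and 7.89 FPKM in hypoxia, against 9.41, 10.4 and 11.2 in normoxia, and MRPL3 had 14.9, 17.4 and 7.56 in hypoxia, against 24.5, 21.4 and 18.6 in normoxia. None of these 3 genes had overlapping mRNA levels, and MRPL11 and MRPL4 passed the test (log2 differences −0.54 and −0.56, adjusted p = 0.0286 and 0.0407) while MRPL3 did not (−0.72, adjusted p = 0.122).

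The mitochondria-specific members MRPS31, MRPL50 and MRPL48 had m6A differences of −0.741, −0.666 and −0.551 in the authors' deposited table. MRPS31 mRNA had 9.88, 9.57 and 4.95 FPKM in hypoxia, against 15.5, 13.1 and 8.13 in normoxia, and library 3 was the lowest of both groups, which overlapped (log2 difference −0.54, adjusted p = 0.253). MRPL50 had 1.24, 1.32 and 0.830 FPKM in hypoxia, against 2.32, 1.57 and 1.40 in normoxia, without overlap (−0.37, adjusted p = 0.194). MRPL48, a protein of the central protuberance, had 1.86, 2.16 and 1.67 FPKM in hypoxia, against 4.45, 3.51 and 3.86 in normoxia, and passed the test (−0.77, SE 0.17, adjusted p = 0.0143).

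**Figure D5:**
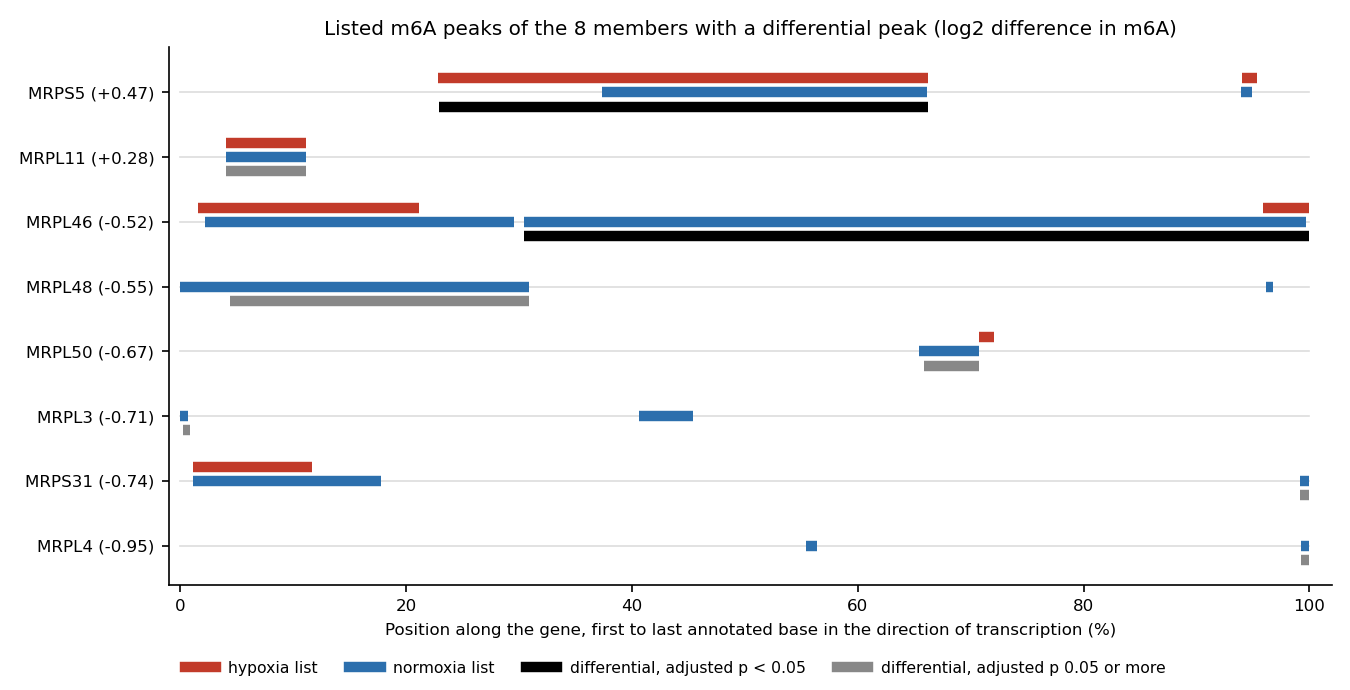
Listed m6A peaks along the 8 members with a differential peak, from the first to the last annotated base of each gene in percent, with the hypoxia list above the normoxia list and the differential peak below both. Log2 differences in m6A stand beside the symbols; MRPS5 and MRPL46 carry the 2 differential peaks with an adjusted p under 0.05, and MRPL3, MRPL4 and MRPL48 have no peak in the hypoxia list.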

How the data were processed

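Input RNA of 3 hypoxia and 3 normoxia cultures was compared, and m6A was described from peak lists. FPKM per gene are the authors' values, per the file headers. The submitters' processing notes name HISAT2 2.0.4, StringTie 2.1.2, HOMER 4.10, edgeR 4.1, fastp 0.19.4 and FastQC, and the build Sscrofa11.1. The role of each tool, the peak caller and any pooling of replicates were not stated. For each gene the authors deposited a log2 fold change with a p-value and a q-value, and for each peak a log2 enrichment, or a log2 difference between conditions, with p-values. Peak starts, taken as 0-based in the files, are printed 1-based; spans include introns.

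Genes that reached 1 FPKM in 3 or more input libraries were tested with limma 3.58.1 (R 4.3.3; variance trend, robust) on log2(FPKM + 1), a scale that understates changes of low genes, with Benjamini-Hochberg adjustment over all of them. The test was checked on simulated data. Errors are SD over libraries or the SE of the fit. Among 607 genes under 0.05 FPKM in normoxia libraries 1 and 2, at most 3 shared a ratio, so no read steps were found and depth is unknown. Members named with values per library are the 8 largest changes past the threshold in each direction, the 4 highest levels of each subunit, members moving against their subunit without overlap, those below the filter and those with a differential peak; of peaks, the 4 highest enrichments per list, and of each related list, the 3 largest past the threshold in each direction with OXA1L, TUFM, TFAM, LRPPRC, NRF1, GABPA and MYC. MRPS11 was named outside these rules, as the neighbour of MRPL46. The members and lists were chosen with earlier results of these data known. No sequences were analysed here.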

Additional observations from a re-analysis of the deposited data

How the results depend on the processing

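Of the 29 members lower in hypoxia, 11 kept an adjusted p under 0.05 (limma) under all 14 alternative settings, the highest being 0.0357. Of the 11, 8 were of the large and 3 of the small subunit, and the other members lost it under at least 1 setting. No such count over all genes tested is given beside this one. Median-ratio scaling left 9 large-subunit and 3 small-subunit members lower. Leaving out 1 library gave 12 to 26 large-subunit members lower and 0 to 2 higher, and 5 to 12 small-subunit members lower. The lowest counts came without normoxia library 2. The share of all genes tested that was lower ran from 7.83% without that library to 31.2% without hypoxia library 3. Rescaling each library to a common sum gave 2 large-subunit members higher, MRPL45 and MRPL54, beside 561 of all 10196 genes tested. Without the filter on low values the relative medians were −0.52 and −0.42 for large and small subunit, since the all-gene median was then −0.04 over 18060 genes; under every setting both stayed negative. Median-ratio scaling turned 9 members positive, MRPL17 (0.17) and MRPL37 (0.00400) among those named with values per library. That of MRPS18B lay between −0.18 and 0.18 with 1 library left out and was −0.19 without both libraries 3, an alternative chosen after seeing the data; none of these passed the test. Of the 8 members with a differential peak, 2 remained at an adjusted p under 0.05, beside 426 of all 1206 differential peaks. Requiring 50% of both peaks, 53 peaks of each list were shared. With the replicate number as a replicate block, 22 large-subunit members were lower and 1 higher, and 12 small-subunit members were lower. At this setting 27.1% of all genes tested were lower. Same-numbered libraries had correlated deviations of r = 0.586, 0.0398 and 0.697. Whether the numbers pair the cultures was not stated, so the unpaired fit was kept as the main fit beside this block. Adjusted p of MRPL3 and MRPS31 were then 0.0296 and 0.032. Depth is unknown, so low genes such as MRPS28 and MRPS18C carry no counting error, and 3 libraries per condition limit every test. Reads of paralogues, pseudogenes and overlapping genes could not be told apart.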
